A study of Mus musculus with 53 samples.

Results

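This report describes 100 RNA probes that were chosen by their counts in a single animal for being higher in fibroblast segments of the median eminence (ME) than in pericyte segments of the ME or the cortex. The GeoMx mouse whole transcriptome panel in these files held 20175 probes, each a barcoded oligonucleotide read as a raw count per segment of a brain section. Counts were summed over the segments of animal 3 and scaled to counts per 1000000 of the total (CPM). In that animal, 1229 probes reached 100 CPM in the ME GFP segments, 229 of these exceeded the higher of the 2 pericyte levels by more than 1.5-fold, and the 100 of highest ratio were taken. The values in animal 3 are therefore a description, with no test, and animals 1, 2 and 4 were not used for the choice.

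The study profiled Pdgfra-H2B-EGFP/+ mice, in which a nuclear reporter under the control of Pdgfra marks fibroblasts, and stained sections for Desmin, a filament protein of pericytes. All segments of all 4 animals carried this genotype, and no treatment was given in the labels. The series held 20 ME GFP segments (fibroblast, 1, 1, 15 and 3 in animals 1 to 4), 17 ME Desmin segments (pericyte, 1, 13 and 3 in animals 2 to 4), 15 cortex Desmin segments (pericyte, 1, 2, 6 and 6 in animals 1 to 4) and 1 cortex GFP segment of animal 2. Animals 1 and 2 were read on one collection plate and animals 3 and 4 on the other, so that plate and animal cannot be told apart. A segment collects probe barcodes from all cells under its mask, and fewer cells of a type and less RNA per cell cannot be told apart in it. GFP and Desmin chose the areas, so a difference in those transcripts would be no finding.

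The ME is a circumventricular organ at the base of the hypothalamus, where neurosecretory axons end beside fenestrated capillaries that lack a blood-brain barrier. Fibroblasts there lie in the perivascular space, where they lay down collagens and other matrix proteins. Pericytes lie within the capillary basement membrane, and in the cortex they help to maintain the barrier. In brain tissue Pdgfra also marks oligodendrocyte precursor cells, so the reporter alone does not name the cells of a cortex GFP segment. The sources used here did not pair the probes with genes, so the fibroblast label could not be checked against collagen or other marker genes, and no role is given for any probe. Only 2 probes are named by their identifiers and the others are referred to by their rank in the ratio that chose them.

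Segment depth differed between types and bears on the low probes. Total counts ran from 24517 to 95935 in ME GFP segments, from 26490 to 140347 in ME Desmin segments and from 25864 to 656061 in cortex Desmin segments, and the cortex GFP segment held 21654. Nuclei numbered 32 to 66, 6 to 60, 25 to 162 and 71 in the same order. The thinnest sum was the single ME Desmin segment of animal 2, in which 1 count was worth 37.8 CPM and 19 of the 100 probes had no count, against 5.05 CPM and 1 probe in animal 4. Segments of one animal are not independent, so values were compared between animals.

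In animal 3, the 100 probes had a median of 178 CPM in ME GFP segments, 80.8 CPM in ME Desmin segments and 36.7 CPM in cortex Desmin segments. The choosing ratio ran from 1.76 to 45.7 with a median of 2.00, and none of the probes lay at the floor of 5 CPM set for the pericyte levels. The last probe inside had a ratio of 1.764 and the first outside 1.760, so the list had no natural edge. ME Desmin was the higher of the 2 pericyte levels for 92 probes. The probes were thus higher in the fibroblast segments, but their counts were not confined to them. In animal 4, 99 of 100 had a count in ME Desmin segments and 100 of 100 in cortex Desmin segments. The median count of the 100 was 18 and 49.5 in these sums, where the median over all probes of the panel was 7 and 43. With no background limit set, a count alone does not show expression in a segment type.

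The highest ratios rested on single segments. Of the 100 probes, 6 had over 50% of their animal 3 ME GFP counts in 1 of the 15 segments (70% to 98.8%), a limit set after the values were seen. They held ranks 1, 2, 3, 6, 7 and 34, which puts 5 of them within the first 10 ranks, and they peaked in 5 different segments. The other 94 probes had 8.97% to 36.0% of their counts in their highest segment, with a median of 12.8% and an even share of 6.67%. Among all 1229 probes at 100 CPM or more, 7 passed the same limit, so that 6 of the 7 were in the list.

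The probe of rank 1 shows the pattern most clearly. It had 1200 counts (20773 CPM) in a single ME GFP segment of animal 3, whereas the other 36 ME segments of both types held 0 to 106 CPM with a median of 26.1. Rank 2 reached 2461 CPM in its highest segment against at most 77.4 CPM in the other 36, and rank 7 reached 2300 CPM against at most 131 CPM. In each of these 3 probes a single segment stood far above all the others. Ranks 3 and 34 had a second, lower tier, with 16372 and 11035 CPM in the highest segment and up to 1308 and 1192 CPM in the other ME segments of both types. Outside the ME, rank 34 reached 1777 CPM in the cortex Desmin segment of animal 1.

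Of the 6 probes, 4 were above both pericyte levels in neither animal 2 nor animal 4. The cause of the single high segments was not tested. Summed shares and values by rank are given with and without these 6.

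In the animals that did not choose them, part of the list kept its position and part did not. In animal 4, 50 of 100 probes were more than 1.5-fold above the higher pericyte level, where 15.5% of the 1229 probes at 100 CPM or more were. In animal 2, 39 of 100 were, against 18.7%, and in animal 1, which has no ME Desmin segment, 73 of 100 exceeded the cortex Desmin level by 1.5-fold, against 46.5%. Both animals 2 and 4 passed for 26 probes (background 5.61%) and all 3 animals for 20 probes (background 3.99%). The background, here and below, is the 1229 probes with the 100 among them, which raises its share wherever that of the 100 is higher. In every case the share among the 100 was above that of the background, and in animals 2 and 4 it did not exceed 50%. A total of 11 probes were above both pericyte levels in neither of animals 2 and 4.

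By rank, the first 10 depended on the single-segment probes. Among ranks 1 to 10, 3 passed 1.5-fold in animal 2 and 4 in animal 4, and all of these were among the 5 probes without a single high segment. Among ranks 11 to 50, 19 of 40 and 21 of 40 passed (18 and 21 of 39 without the probe of rank 34), and among ranks 51 to 100, 17 of 50 and 25 of 50. The median ratio over the higher pericyte level in ranks 1 to 10 was 0.937 in animal 2 and 1.27 in animal 4 with all 10 probes, and 3.38 and 2.90 with the 5. In ranks 11 to 50 it was 1.49 and 1.60 with all 40 probes, so that the order of the first 2 bands turned with those 5 probes. The differences between bands were not tested.

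Against the ME Desmin segments alone, the median log2 ratio of the 100 probes was 0.68 in animal 2 and 0.63 in animal 4, with medians of 0.21 and 0.06 over the 1229 background probes. The value in animal 3, which the choice fixed, was 1.01. Levels below 5 CPM were set to 5 CPM in the log2 ratios of animals 1, 2 and 4. In the ME Desmin segment of animal 2 this included the 19 probes with no count, although 1 count there is 37.8 CPM. The high ratios in that animal therefore depend on the floor. The middle 50% of the probes ran from -0.45 to 2.06 in animal 2 and from 0.19 to 1.08 in animal 4, so the spread was wider in the animal with the thinner ME Desmin segment. The background ran from -0.49 to 0.89 and from -0.42 to 0.48. In animal 2 the lower quartile of the 100 probes was thus close to that of the background, whereas in animal 4 both quartiles lay higher.

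Against the cortex Desmin segments the difference was larger. The median log2 ratio was 1.37, 0.98 and 1.76 in animals 1, 2 and 4, where the background probes had 0.41, 0.40 and 0.37. The ME Desmin segments also lay above the cortex Desmin segments for these probes, with medians of 0.54 in animal 2 (background 0.18) and 1.11 in animal 4 (background 0.41). In animal 4 the levels ran in the order ME GFP, ME Desmin, cortex Desmin for 75 of 100 probes, against 34.3% of the background. In animal 2 this order held for 27 of 100, against 25%, so that there the order was no more frequent than among the background probes.

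Summed over the list, the 100 probes took 1.73% of the counts in the ME GFP segment of animal 1 (95% exact binomial interval 1.63 to 1.84), 1.76% in animal 2 (1.66 to 1.87) and 2.72% over the 3 segments of animal 4 (2.62 to 2.83). In ME Desmin segments they took 1.03% (0.916 to 1.16) in animal 2 and 1.45% (1.394 to 1.4997) in animal 4. In cortex Desmin segments they took 0.786%, 0.629% and 0.540% in animals 1, 2 and 4. The intervals cover counting error only.

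The ratio of ME GFP to ME Desmin shares was 1.70 in animal 2 and 1.88 in animal 4, and that of ME GFP to cortex Desmin was 2.20, 2.80 and 5.05 in animals 1, 2 and 4. Without the 6 probes that peaked in single segments, the ratios in animal 2 were 1.76 and 2.98, those in animal 4 were 1.99 and 5.50, and that over the cortex in animal 1 was 2.91. The change in animal 1 came with a cortex Desmin share that fell from 0.786% to 0.584%, since the probe of rank 34 alone held 73 of the 323 counts there. In that animal the probe was lower in the ME GFP segment (5 counts, 81.0 CPM) than in the cortex Desmin segment (1777 CPM).

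By segment, the share was 1.73% to 3.11% in the 5 ME GFP segments of animals 1, 2 and 4, 1.03% to 1.52% in the 4 ME Desmin segments and 0.502% to 0.786% in the 9 cortex Desmin segments. The 3 types did not overlap, and without the 6 probes they lay at 1.70% to 3.09%, 0.966% to 1.47% and 0.451% to 0.688%. The shares of the background probes did not overlap either, at 28.6% to 29.9%, 26.6% to 27.7% and 21.7% to 24.2% in the same order. The lack of overlap alone thus does not set the list apart, although the background shares differed by less in proportion. In animal 3 the share of the list in the 15 ME GFP segments ran from 2.19% to 4.20%, and without the 6 probes from 1.89% to 2.59%. The 3 segments above 3% there were those in which the probes of ranks 1, 2, 3 and 34 peaked.

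The GFP and Desmin segments of the same region of interest gave 17 pairs, of which 4 came from animals 2 and 4. In these 4 pairs, 64, 71, 72 and 68 of the 100 probes were higher in the GFP segment. The background shares were 58% in the pair of animal 2 and 51.7%, 50.8% and 50% in the 3 pairs of animal 4. The excess over the background was thus smaller in animal 2 than in each pair of animal 4. The share of counts on the list was higher in the GFP segment of each pair, 1.70-fold in animal 2 and 1.93-, 1.49- and 2.12-fold in animal 4. The share of the background probes was higher there in each pair too, by less. It was 29.9% against 27.1% in animal 2, and 28.6% against 27.7%, 29.1% against 26.6% and 29.5% against 27.2% in animal 4. In all 4 pairs, 28 probes were higher in the GFP segment, against 11.6% of the background, and 1 probe was higher in none. In the 13 pairs of animal 3, which chose the probes, 79 to 93 were higher, with a median of 88.

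The cortex GFP segment of animal 2 asks whether the probes follow the reporter outside the ME. They took 0.720% of its counts (0.612 to 0.842), which lay between the 0.502% (0.423 to 0.592) of the cortex Desmin segment of the same region and the 0.766% (0.663 to 0.879) of the other cortex Desmin segment of that animal. Without the 6 probes it took 0.707% (0.599 to 0.827) against 0.460% and 0.688%, so its place relative to the second depended on them. The ME GFP segment of the animal, at 1.76%, was above all 3. By probe, 55 were higher and 34 lower in the cortex GFP than in the Desmin segment of its region, with 42.6% of the background higher. The ME GFP segment was above the cortex GFP segment for 75 probes, against 68.8% of the background.

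The cortex GFP segment has no replicate, and the 2 cortex Desmin segments differed by about as much as GFP and Desmin of its region. With all 100 probes the Desmin segments differed by more (0.502% and 0.766%, with GFP at 0.720%). Without the 6 probes they differed by slightly less (0.460% and 0.688%, with GFP at 0.707%). In the cortex GFP segment 32 of the 100 probes had no count, which at 1 count being worth 46.2 CPM allows up to 139 CPM each (3 counts), and 22 had 3 or more counts. For most single probes a difference was not detectable at this depth.

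A fit across probes used the sums per animal and segment type of animals 1, 2 and 4, with edgeR's quasi-likelihood test, the animal as a block and Benjamini-Hochberg adjustment over all probes tested. Calls needed an adjusted p below 0.05 together with an absolute log2 fold change above 1. The filter asked for a mean level of about 168 CPM over the 8 sums and kept 404 probes, of which 12 were among the 100. The choosing rule only asked for 100 CPM in the ME GFP segments, so the 12 are the more abundant of the list and do not stand for it. A listed probe under 168 CPM in the cortex Desmin sums could pass only through higher ME sums. Rank 10 passed with 34.8 to 48.7 CPM in those cortex sums and rank 84 with 28.1 to 111 CPM. Passing thus favoured a call over cortex Desmin for such probes, and those calls are no independent support. The fit with no filter tested all 20175 probes and thus all 100.

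Between ME GFP and ME Desmin segments, 2 of the 12 probes, RTS0074851 and RTS0063872, were called higher, against 0.495% of the 404 probes tested, so that no other probe was called higher, and 6 probes outside the list were called lower (14 with library totals as the only scaling). No probe of the 12 was called lower, 6 were higher at an unadjusted p under 0.05, and their median log2 fold change was 0.77 against 0.09 over all tested. Without a filter, none of the 100 was called at 0.0149% of all probes called higher. There 11 of the 100 were higher and 1 lower at an unadjusted p under 0.05, and their smallest edgeR adjusted p was 0.059. In that fit the median over the 100 was 0.49 against -0.12 over all probes, and DESeq2 with the filter called 1 of the 12. Both calls were lost with no filter and upper-quartile scaling and with no replicate block. With no filter and TMM scaling or library totals, RTS0074851 was called and RTS0063872 was not. Both calls were made with filterByExpr, which tested 34 of the 100 probes among 999. Without animal 4, 1 of the 2 was still called, and without animal 2 neither was, while 1 other probe of the list was.

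Between ME GFP and cortex Desmin segments, 10 of the 12 probes were called higher (13.1% of the 404), with log2 fold changes of 1.06 to 4.81. The filter favoured such calls for listed probes that were low in the cortex. Without a filter 29 of the 100 were called higher, against 0.421% of all 20175 probes, with log2 fold changes of 1.84 to 4.47 and none called lower. The median log2 fold change over the 100 was 1.40 against -0.23 over all probes, and with TMM scaling in place of the upper quartile it was 1.68 against 0.05. The median of all probes was 1 to 2 counts in the sums of animals 1 and 2, so 0.421% is not a background of like level. With filterByExpr, 29 of the 34 listed probes tested were called higher, against 20.8% of 999. That filter, too, can be passed through the ME sums alone. Among the 404 probes, 53 were called higher and 61 lower, a split that was 26 to 74 with TMM scaling. Leaving out animal 2, the animal with the thinnest sum, let 35 of the 100 probes pass the filter, among 1194 in all. The median log2 fold change of these 35 was 1.70, against 0.12 over all tested.

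Between ME Desmin and cortex Desmin segments, 4 of the 12 were called higher (8.91% of the 404). The filter favoured these calls in the same way. Without a filter, 14 of the 100 were called higher, against 0.486% of all probes, again not a background of like level. The median log2 fold change over the 100 was then 0.86 against -0.08. With the filter and without animal 1, 11 of 19 listed probes tested were called higher, against 12.3% of 697. Without animal 2 or without animal 4 a lone ME Desmin sum was left. The median log2 fold change was then 1.30 over 35 listed probes and 0.87 over 16, against 0.28 and 0.05 over all tested. The 3 comparisons share their sums, so their counts are not independent of each other. In the smallest sums the 75th percentile by which the fit without a filter was scaled is 2 counts, so its fold changes carry the rounding of that scale.

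The probe RTS0074851, rank 4, had 1101, 2926 and 4438 CPM in the ME GFP sums of animals 1, 2 and 4. Its ME Desmin sums held 491 and 1203 CPM in animals 2 and 4, and its cortex Desmin sums 268, 148 and 164 CPM in animals 1, 2 and 4. The GFP value was the highest in each animal, which the rule that named the probe required. The log2 fold change over ME Desmin was 1.99 ± 0.44 (SE; edgeR adjusted p = 0.016) and over cortex Desmin 4.01 ± 0.46 (edgeR adjusted p = 1.0e-06). Over single segments the types overlapped, with 190 to 6902 CPM in ME GFP and 53.0 to 1699 CPM in ME Desmin segments of all animals, but within a region the GFP segment was higher in 4 of 4 pairs of animals 2 and 4 (1.57- to 7.75-fold). Without animal 2 neither comparison called the probe, at log2 fold changes of 1.46 and 3.93. The call over ME Desmin was also lost in single segments with limma (1.79, adjusted p = 0.077) and with the average log CPM filter (1.93, edgeR adjusted p = 0.093). The animals themselves differed, since the ME Desmin sum of animal 4 was above the ME GFP sum of animal 1.

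The probe RTS0063872, rank 10, had 502, 894 and 888 CPM in the ME GFP sums of animals 1, 2 and 4, 264 and 344 CPM in the ME Desmin sums of animals 2 and 4, and 48.7, 37.1 and 34.8 CPM in the cortex Desmin sums of animals 1, 2 and 4. The 3 segment types did not overlap between these sums, where the naming rule required the ME GFP sum to be the highest within each animal. Single ME segments did overlap, with 410 to 1397 CPM in ME GFP and 146 to 583 CPM in ME Desmin segments of all animals. Its log2 fold change was 1.55 ± 0.34 over ME Desmin (SE; edgeR adjusted p = 0.015) and 4.54 ± 0.36 over cortex Desmin (edgeR adjusted p = 9.7e-09), and ME Desmin lay 2.99 above cortex Desmin (edgeR adjusted p = 1.2e-05). The GFP segment was higher in 4 of 4 pairs of animals 2 and 4, by 1.25- to 3.38-fold. The call over ME Desmin was lost without animal 2 (1.28), without animal 4 (1.61), with the average log CPM filter (1.49) and with DESeq2 (1.54). That of ME GFP over cortex Desmin was kept under every alternative run, and that of ME Desmin over cortex Desmin was lost without animal 4 (2.29, edgeR adjusted p = 0.094). In the cortex GFP segment it had 2 counts (92.4 CPM), where the cortex Desmin segments of all animals held 17.7 to 53.6 CPM.

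The remaining 10 of the 12 probes fell into a few patterns. The probe of rank 84 was high in both ME segment types, with 1636, 981 and 1351 CPM in the ME GFP sums of animals 1, 2 and 4 and 1095 and 829 CPM in the ME Desmin sums of animals 2 and 4, but 73.0, 111 and 28.1 CPM in the cortex sums. Its log2 fold change was 4.81 over cortex Desmin and 0.44 over ME Desmin (edgeR adjusted p = 0.65). Rank 60 had 745, 824 and 998 CPM in the ME GFP sums, 378 and 531 CPM in the ME Desmin sums and 195, 74.2 and 58.5 CPM in the cortex sums. Rank 17 had the largest log2 fold change over ME Desmin after the named pair (1.32 ± 0.38, SE), with an edgeR adjusted p of 0.070. Ranks 40, 49, 74, 75 and 96 were called over cortex Desmin at log2 fold changes of 1.06 to 1.40. Ranks 3 and 34, both with a single high segment in animal 3, had log2 fold changes of 0.13 and -1.55 over ME Desmin and -0.22 and -0.93 over cortex Desmin, and neither was called.

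A probe can also be high in a single held-out animal. Rank 9 had 3298 CPM in the ME GFP and 728 CPM in the ME Desmin segments of animal 4, but 105 and 0 CPM in those of animal 2 and 81.0 CPM in the ME GFP segment of animal 1, where the cortex Desmin segment held 243 CPM. Rank 19 ran alike, with 1311 and 480 CPM in the ME GFP and ME Desmin segments of animal 4 and 0 and 37.8 CPM in those of animal 2. In animal 1 it had 32.4 CPM in the ME GFP and 219 CPM in the cortex Desmin segment. Without a filter, rank 9 was still called over cortex Desmin (2.82, edgeR adjusted p = 0.030), although cortex Desmin was the higher in animal 1. Rank 19 was not called. Both were chosen for mention after their values were seen.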

How the data were processed

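RNA was measured in 53 segments of 4 animals, taken from the labels, which also give segment type, slide and region. The authors processed reads with GeoMx NGS Pipeline 2.3.4, which matched them to probe barcodes and collapsed repeats of a molecular identifier. They deposited raw counts per probe with no normalization or background subtraction. A check of the unit read the counts of 45 files. Those of the other 8 could not be located by a column name and were checked as whole numbers of at least 1 when loaded. A probe with no line was set to 0. Negative control probes and genes are not marked, so no background limit was set and no gene list, marker or sequence was used. The panel's probes are otherwise used as deposited.

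The members and all lists were chosen with earlier results of these data known. CPM is counts per 1000000 of all counts of the segment or sum. Sums of animals 1, 2 and 4 (8 sums, 26490 to 1350676 counts; animal 1 has no ME Desmin sum) were fitted in 1 model with edgeR 4.0.16 (R 4.3.3): upper-quartile scaling (percentile 75), robust quasi-likelihood F test, segment type with the animal as a block (3 residual degrees of freedom), after a filter on the mean log2 CPM (prior count 2) at the level of 10 counts in the sum of median size. SE is the log2 fold change over the square root of F and rests on variance shared between probes. Sums are paired because they come from the same animal, and deviations from group means correlated within animals at -0.090 to 0.387 (0.225 and 0.387 for ME GFP with ME Desmin). The steps were run on simulated sums with no animal effect, the same dispersion for all probes and changes planted only in more abundant probes. That run does not cover the lower probes of the list. Alternatives used TMM, DESeq2 1.42.0, limma 3.58.1, other filters, left-out animals and other ways to choose the probes. The study's mixed model over segments was run only in a limma form. The named pair was picked by a rule on animals 1, 2 and 4. Candidates were listed probes that passed the filter, above both pericyte levels in animals 2 and 4 and above cortex Desmin in animal 1. There were 8, and the 2 of smallest p over ME Desmin were named. Their order in these animals and their place by p were thus set by the rule. No listed probe that passed the filter was below ME Desmin in both animals 2 and 4.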

Additional observations from a re-analysis of the deposited data

How the results depend on the processing

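No median of the listed probes and no fold change of the named pair changed sign. Counts are given in the order ME GFP over ME Desmin, ME GFP over cortex Desmin, ME Desmin over cortex Desmin, and main counts of the listed probes called were 2, 10 and 4 of 12 tested. The listed probes tested were 100 with no filter, 34 with filterByExpr and 18 with the average log CPM filter. They were 19, 35 and 16 without animals 1, 2 and 4, so counts called under different settings are not like for like. With no filter the counts called were 0, 29 and 14, with filterByExpr 29 and 14 in the last 2, and with edgeR's average log CPM 0 in the first and 9 in the last. With no replicate block the first was 0 and the others stayed within 1.5-fold. Fitting only the 2 groups compared gave 10 in the first and 17 in the last (41 and 35 listed probes passed the filter), and DESeq2 gave 1 and 6 in the first 2. With no filter, TMM scaling gave 1, 39 and 17 and library totals 1, 39 and 20. The average log CPM filter and these last 2 settings, and the choice by median and the removal of 6 probes named below, were added after the data were seen. Without each animal in turn the counts ran over 1 to 2, 7 to 25 and 1 to 17, and a lone ME Desmin sum was then assumed to vary like the other groups. All probes called higher were 2, 53 and 36, and all called lower 6, 61 and 61. Higher and lower calls were 26 and 74 with TMM and 30 and 71 with library totals in the second, and lower calls in the first were 11 and 14. No filter gave 85 and 98 higher in the last 2 and 12, 298 and 209 lower. With no filter, TMM gave 6, 159 and 121 higher and 13, 226 and 257 lower, and library totals 6, 181 and 173 higher and 18, 290 and 288 lower. FilterByExpr gave 208 and 169 higher in the last 2 and 12, 228 and 214 lower, and the average log CPM filter 0, 81 and 65 higher and 113 and 105 lower in the last 2. No replicate block gave 0 higher and 3 lower in the first. The 2 groups compared gave 22 higher and 32 lower in the first and 256 and 218 in the last. DESeq2 gave 1, 26 and 21 higher and 37 lower in the last. Single segments gave 8 higher and 17 lower in the first with edgeR and 15 lower with limma. Without an animal, higher calls ran over 1 to 4, 54 to 209 and 30 to 185, and lower calls over 3 to 19, 83 to 172 and 31 to 156. Higher calls outnumbered lower ones over cortex Desmin only without animal 2 (209 and 172 for ME GFP, 185 and 156 for ME Desmin) and, for ME Desmin, with only the 2 groups compared. Library totals moved the median log2 fold change of all 404 probes over ME Desmin from 0.09 to -0.09, a change of sign, and that of the 12 from 0.77 to 0.59. Median log2 ratios over ME Desmin of 0.68 (animal 2) and 0.63 (animal 4) became 0.79 in animal 2 after upper-quartile scaling, 0.61 there with a floor of 20 CPM, 0.86 and 0.57 with probes chosen without slide 5, 0.56 in animal 4 without slide 6, 0.89 in animal 2 when chosen by mean segment CPM, 0.61 and 0.58 when chosen after upper-quartile scaling, 0.74 and 0.68 for the 50 highest, 0.77 and 0.70 when chosen by median segment CPM, and 0.73 in animal 2 without the 6 probes that peaked in 1 segment. The choice by median shared 69 probes with the list and none of those 6. All shares of probes above 1.5-fold, all ratios of summed shares and the median share of region pairs stayed within 1.5 times under every alternative run. Median log2 ratios over cortex Desmin moved by less than their spread between animals. The causes were not tested. The sums of animals 1 and 2 hold 26490 to 61752 counts, so single low probes carry few counts there.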
